A study of Mus musculus with 6 samples.

Results

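Crystallins were first known as the abundant water-soluble proteins of the lens, but several are also made in the retina, in glia and in immune cells. The 10 crystallin genes described here are the rows of the deposited table named Cryaa, Cryab, Cryba1, Cryba2, Cryba4, Crybb1, Crybb2, Crybb3, Crygs and Crym, chosen by name and not by a measured value, out of 55487 genes listed. They were followed in vascular endothelial cells (VECs) sorted at P7.5 from mouse retinas, in 3 control libraries (tdTomato FL/+;Pdgf-icreER) and 3 Bmal1;CKO libraries (Bmal1 FL/FL;tdTomato FL/+;Pdgf-icreER), with tamoxifen given to both from P0.5 to P2.5. Both groups therefore carried the Cre transgene, which also gives GFP, and the Cre-activated tdTomato reporter, and only cells positive for both colours were collected. Recombination is limited to cells in which the Pdgf-icreER transgene is active, which the paper uses to delete Bmal1 from endothelial cells. Which of the collected cells had lost Bmal1 was not tested here. The study names 3 animals per genotype, and whether retinas were pooled is not given in the sources used here, so p-values measure the spread between these libraries. The table numbers its control libraries 1, 2 and 3 and its Bmal1;CKO libraries 4, 5 and 6, and all values are normalized counts, that is, reads divided by the size factor of the library.

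The crystallins fall into families of unlike function. The α crystallins Cryaa and Cryab are small heat shock proteins that hold unfolding proteins in solution. The β and γ crystallins share a fold of Greek key motifs and are structural proteins of lens fibres. Crym, or μ crystallin, is unrelated to these in sequence and binds thyroid hormone and reduces ketimines. Lens-type expression of the β and γ genes depends on large MAF factors, PAX6 and SOX proteins, and the large MAF factors bind sites built on the half-site TGCTGA. The clock factor BMAL1, with its partner CLOCK, binds the E-box CACGTG.

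The promoters are shown first because their sequence does not depend on the libraries. Of the 10 genes, 8 were matched by symbol to RefSeq promoters of GRCm38.p6. In each, 250 bases upstream of the RefSeq start were searched on both strands for each motif. TGCTGA or its reverse complement was present in 7 of the 8, in Cryaa, Cryba1, Cryba2, Cryba4, Crybb1, Crybb3 and Crygs, whereas 16.1% of all 32544 RefSeq windows of the same length held it. In Cryaa the match began 108 bases before the RefSeq start and lay inside the annotated gene, after its annotated start. Crybb2 held none, and Cryab and Crym had no matched promoter. CACGTG was present in 0 of the 8, against 6.03% of all windows. Those of the highest β crystallin pair (Cryba4, Crybb1), of Crybb3 and of the gene whose groups lay apart (Cryba2) are printed 5′ to 3′ up to the annotated start, with TGCTGA or TCAGCA in capitals. For Crybb1 the annotated start lies 5 bases before the RefSeq start.
Cryba4, chr5:112252519-112252768, reverse strand: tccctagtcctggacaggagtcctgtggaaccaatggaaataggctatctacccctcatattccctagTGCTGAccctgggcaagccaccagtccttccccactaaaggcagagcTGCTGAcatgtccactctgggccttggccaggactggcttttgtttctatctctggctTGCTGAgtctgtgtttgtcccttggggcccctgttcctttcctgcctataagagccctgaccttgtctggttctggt
Crybb1, chr5:112255570-112255814, forward strand: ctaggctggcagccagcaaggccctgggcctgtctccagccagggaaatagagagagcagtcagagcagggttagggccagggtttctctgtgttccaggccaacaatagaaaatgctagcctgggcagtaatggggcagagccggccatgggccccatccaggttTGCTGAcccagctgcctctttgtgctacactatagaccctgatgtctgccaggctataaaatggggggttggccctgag
Crybb3, chr5:113081585-113081834, reverse strand: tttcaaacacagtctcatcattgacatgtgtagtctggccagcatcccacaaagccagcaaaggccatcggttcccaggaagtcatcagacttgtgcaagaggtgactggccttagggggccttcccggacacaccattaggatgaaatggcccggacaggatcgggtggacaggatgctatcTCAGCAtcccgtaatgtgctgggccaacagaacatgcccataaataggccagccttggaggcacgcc
Cryba2, chr1:74893144-74893393, reverse strand: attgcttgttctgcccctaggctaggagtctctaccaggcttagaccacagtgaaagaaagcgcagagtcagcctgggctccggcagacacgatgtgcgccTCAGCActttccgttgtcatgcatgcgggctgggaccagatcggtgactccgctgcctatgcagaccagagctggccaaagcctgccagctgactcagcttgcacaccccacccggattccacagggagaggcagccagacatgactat
Cryba4 held the half-site 3 times, beginning 182, 135 and 77 bases before the RefSeq start. Crybb1 held it once, at 84 bases, Crybb3 at 67 and Cryba2 at 149. A match of 6 letters is a description of the sequence and was not tested for binding.

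The libraries held 71145068 to 104017800 reads on genes, and 3 reads, the most that a count of 0 was taken to allow, correspond to 2.14 to 4.22 normalized counts. Such limits cover counting error only, since the RNA was amplified. Bmal1 itself, listed as Arntl, had 1700.4, 3489 and 2928 normalized counts in control libraries 1 to 3 and 1779, 2747 and 2415 in Bmal1;CKO libraries 4 to 6, so the groups overlapped (means 2706 ± 915 and 2314 ± 492, SD, n = 3 each; limma-trend adjusted p = 0.924). These counts are summed over the whole gene, any exons outside the deletion included, so the library labels could not be checked by them. In a separate measurement, the paper reports significantly fewer Bmal1 copies by droplet digital PCR in sorted mutant endothelial cells than in control cells. The sorted cells held the 13 endothelial markers at 10 or more reads in every library, with sums of 188501 to 368621 normalized counts in control and 113756 to 240280 in Bmal1;CKO, and the 9 markers of microglia and macrophages at sums of 1386183 to 4103347 and 2013410 to 3985845. The 13 endothelial markers were all lower in Bmal1;CKO (median log2 fold change -0.52) and 8 of the 9 microglial markers higher (0.40), with 0 of either at an adjusted p under 0.05 or an unadjusted p under 0.05 by limma-trend. The 12 rod markers summed to 740147 to 909770 normalized counts in control and 550952 to 892527 in Bmal1;CKO. In every library this sum was above that of the endothelial markers. Of the 12 rod markers, 11 were lower in Bmal1;CKO and 1 higher (median log2 fold change -0.26). By limma-trend 0 had an adjusted p under 0.05 and 2 an unadjusted p under 0.05, where 4.92% of all genes tested had one. The part of the cell makeup in the values of the crystallin genes was not tested. Fewer cells of a type and less RNA per cell cannot be told apart in such bulk samples. Control library 1 stood apart in holding 0 normalized counts of Gad1 and Thy1, and Bmal1;CKO library 4 stood apart in the lens crystallins described further on. For the 10 crystallin genes, results that rest on either are given with and without it. Fold changes of single genes outside the 10 are given with all 6 libraries only.

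The 10 genes covered more than 4 orders of magnitude. Compared per kb of exon, Crybb1 had a mean level of 9579 ± 6443 normalized counts per kb (SD over 6 libraries), Crym 8134 ± 3007 and Cryba4 7503 ± 3496. Crybb1 exceeded Crym in 3 of 6 libraries and Crym exceeded Cryba4 in 4 of 6, so the order among these 3 was within their spread. Cryab followed at 1586 ± 469 per kb and lay below Cryba4 and above Crybb3 in 6 of 6 libraries. Crybb3 (146 ± 58.7 per kb) and Cryba1 (52.3 ± 45.8 per kb) overlapped in range, and so did Cryaa (25.0 ± 54.9 per kb), Cryba2 (16.3 ± 19.3 per kb), Crygs (3.48 ± 8.53 per kb) and Crybb2 (0.642 ± 1.41 per kb). Only 6 of the 10 genes had 10 or more reads in every library, namely Crym, Crybb1, Cryba4, Cryab, Crybb3 and Cryba1. The plot of levels per kb shows this order.

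**Figure D1:**
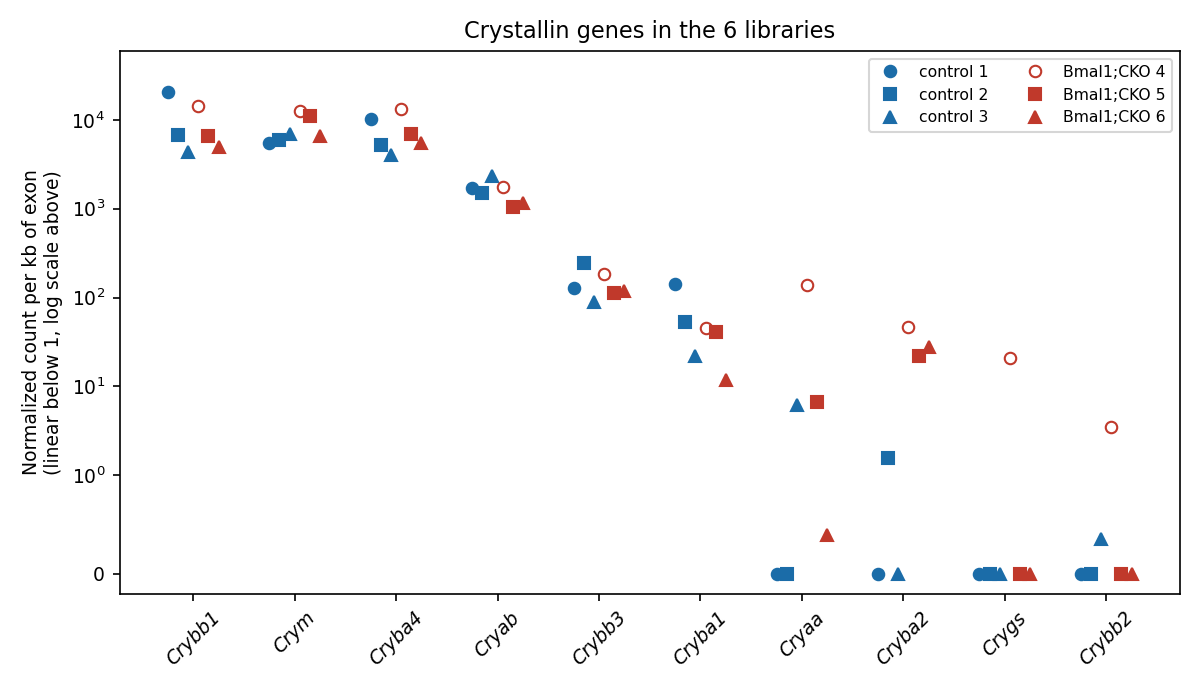
Normalized count per kb of exon (vertical axis, linear below 1 and logarithmic above) of the 10 crystallin genes, 1 point per library, blue for control and red for Bmal1;CKO, with library 4 as an open circle. Crybb1, Crym and Cryba4 lie between 4002 and 20448 per kb in every library, whereas Crygs was read only in library 4.

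The genotypes were compared with limma-trend, an empirical Bayes linear model, on log2(normalized count + 1). A gene was tested if 3 or more libraries held 10 or more reads on it, which left 20459 genes. Of the 10 crystallin genes, 8 passed that filter, and Crybb2 and Crygs did not. The adjusted p was under 0.05 for 0 of the 8, against 0% of all genes tested (limma-trend with Benjamini-Hochberg adjustment, 0.867 to 0.987 for the 8). At an unadjusted p under 0.05 there was 1 of 8, Cryba2, against 4.92% of all genes tested (3.17% higher and 1.75% lower in Bmal1;CKO). That share was 2.17% to 11.9% with 1 library left out, lowest without Bmal1;CKO library 5 (or 4, 2.31%) and highest without control library 3 (or 1, 8.65%). The estimate was above 0 for 4 of the 8 and below 0 for the other 4, while 56.6% of all genes tested lay above 0. The median estimate of the 8 was 0.17 on the log2 scale, against 0.11 over all genes tested. The median over all genes tested depended on the model, being -0.03 by edgeR with either TMM scaling or the size factors of the table and 0.10 by limma-trend on log2 CPM after TMM scaling. The plot of log2 fold changes shows the 8 estimates with their errors.

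**Figure D2:**
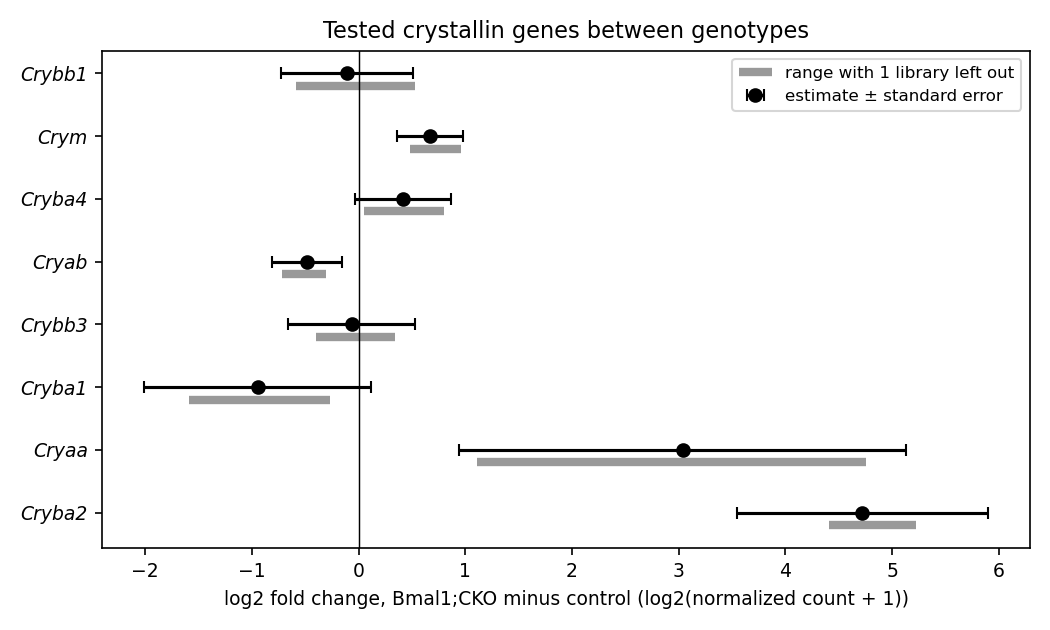
Log2 fold change (horizontal axis, Bmal1;CKO minus control, on log2(normalized count + 1)) of the 8 tested crystallin genes. Points and whiskers are the limma-trend estimate and its standard error with 3 libraries a group, and grey bars the range with 1 library left out. The bars of Crybb1 and Crybb3 cross 0, and those of Cryba2 and Cryaa are the farthest to the right.

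Crym (ENSMUSG00000030905) lies on the reverse strand of chromosome 7 of GRCm38 from 120186380 to 120202111. It had 18609.7, 20281 and 23609 normalized counts in control libraries 1, 2 and 3. In Bmal1;CKO libraries 4, 5 and 6 it had 42976, 37806 and 22217. Libraries 4 and 5 lay above every control library, while library 6 lay below control library 3, so the groups overlapped. The means were 20833 ± 2545 in control and 34333 ± 10807 in Bmal1;CKO (SD, n = 3 each). On the log2 scale the fold change was 0.67 (standard error 0.31, limma-trend unadjusted p = 0.0623, adjusted p = 0.883). The exact permutation test gave p = 0.2 (two-sided), where 3 libraries against 3 can reach 0.1. The log2 fold change was 0.48 without library 4 and 0.96 without library 6, its lowest and highest with 1 library left out.

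Genes that handle thyroid hormone, which Crym binds in the cytosol, were followed beside it. Of the 8 listed, 6 were tested, of which 3 had an estimate above 0 and 3 below, with a median of -0.03 on the log2 scale, and 0 had an unadjusted p under 0.05 by limma-trend. Slc16a10, a transporter of thyroid hormone and aromatic amino acids, was the 1 of these whose groups did not overlap, where 11.2% of all genes tested did not. It had 177 ± 45.3 normalized counts in control and 343 ± 87.8 in Bmal1;CKO (SD, n = 3 each). Its estimate was 0.95 on the log2 scale (standard error 0.58, limma-trend adjusted p = 0.883). The deiodinases Dio2 and Dio3 were near 0, with at most 32.9 normalized counts in a library.

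Crybb1 (ENSMUSG00000029343, chromosome 5, 112255815 to 112269585, forward strand) and Cryba4 (ENSMUSG00000066975, chromosome 5, 112246493 to 112252518, reverse strand) are neighbours that are transcribed away from each other, with 3296 bases between them. Crybb1 is known from mouse brain as a gene of immature microglia, besides its part in the lens. Crybb1 had 20142, 6571 and 4291 normalized counts in control libraries 1, 2 and 3, and 14222, 6455 and 4933 in Bmal1;CKO libraries 4, 5 and 6. Cryba4 had 8589, 4341 and 3354 in control and 10999.9, 5819.7 and 4619 in Bmal1;CKO. For both genes control library 1 and Bmal1;CKO library 4 were the highest of their groups, and the groups overlapped. The log2 fold change was -0.11 (standard error 0.62, limma-trend adjusted p = 0.979) for Crybb1 and 0.41 (standard error 0.45, limma-trend adjusted p = 0.886) for Cryba4. Without control library 1 it was 0.53 for Crybb1 and 0.80 for Cryba4, and without Bmal1;CKO library 4 it was -0.55 and 0.05. The direction of Crybb1 therefore rested on single libraries. The ratio of Crybb1 to Cryba4 within a library was 2.34, 1.51 and 1.28 in control and 1.29, 1.11 and 1.07 in Bmal1;CKO, and these groups overlapped as well (exact permutation test, two-sided p = 0.2, adjusted 0.733, n = 3 each). Tpst2, the next gene beyond Crybb1 and a tyrosylprotein sulfotransferase, ran from 18747 to 49769.

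The level of this pair in each library was set beside the markers of microglia. Over the 6 libraries, log2 Cryba4 had a Pearson coefficient of 0.92 (Spearman 0.89) with the log2 summed level of the 9 microglia and macrophage markers, and Crybb1 of 0.85 (Spearman 0.66). Leaving out the libraries farthest from the median of the markers, control library 1 and Bmal1;CKO library 4, gave 0.71 and 0.13 over 4 libraries, so the relation of Crybb1 rested on those libraries. Other lists gave coefficients as well. The markers of Müller glia without Apoe gave 0.73 for Cryba4 and 0.68 for Crybb1 over 6 libraries, and 0.85 and 0.91 without Bmal1;CKO libraries 4 and 5, and the bipolar markers gave -0.79 and -0.94 over 6 libraries but 0.87 and 0.62 without control library 1 and Bmal1;CKO library 4. Nothing particular to the microglial list was shown. The microglial markers differed among themselves. With Aif1, which encodes the microglial protein IBA1, Crybb1 had a coefficient of 0.99, and with the complement genes C1qa, C1qb and C1qc of 0.86 to 0.89. With Csf1r, Cx3cr1, P2ry12 and Tmem119, which mark microglia as well, it lay between -0.12 and 0.49. Per 1000 normalized counts of Aif1 there were 206 to 289 of Crybb1 in the 6 libraries, a coefficient of variation of 12.1% where Crybb1 alone had 67.3%. Per 1000 of C1qb there were 4.63 to 7.31 of Cryba4, a coefficient of variation of 16.9% where Cryba4 alone had 46.6%. Neither ratio separated the groups, whereas Cryba4 per 1000 of Aif1 was 106, 136 and 186 in control and 223, 197 and 215 in Bmal1;CKO (exact permutation test, two-sided p = 0.1, n = 3 each; 0.733 after Benjamini-Hochberg adjustment over the 22 ratios compared). These points share their libraries, and Aif1 ranked 33 of 15608 genes by its coefficient with Crybb1. The part of microglia in the levels of the pair was not tested. The plot of levels relative to the mean shows the libraries gene by gene.

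**Figure D3:**
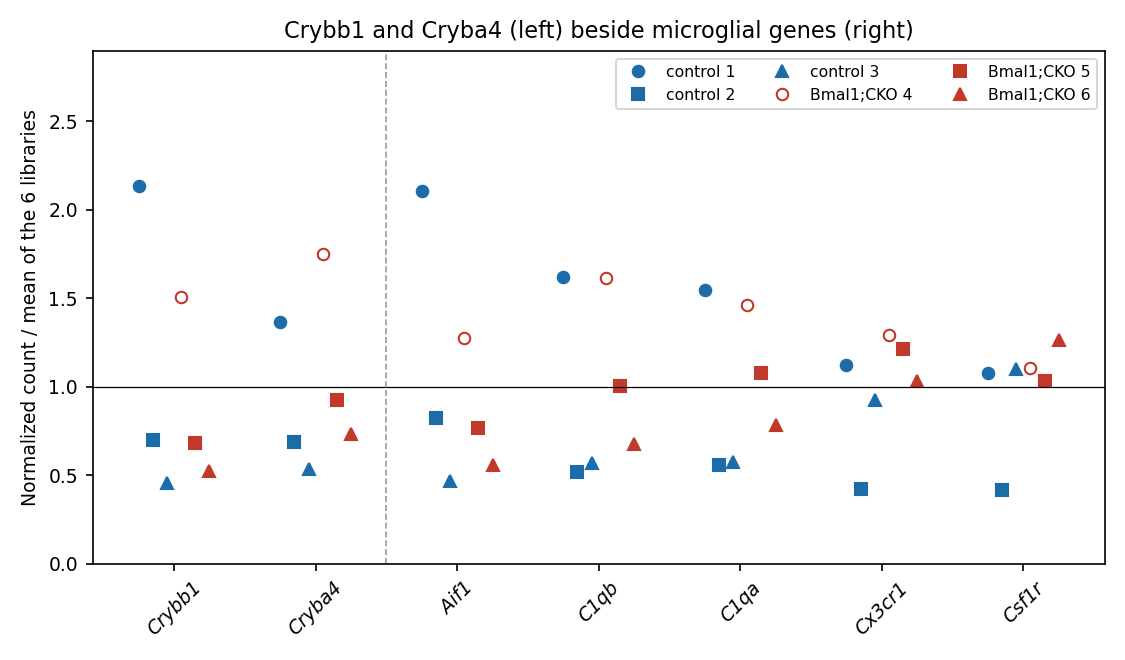
Normalized count divided by the mean of the 6 libraries (vertical axis) for Crybb1 and Cryba4 and for 5 microglial genes, 1 point per library, blue for control and red for Bmal1;CKO. Control library 1 and Bmal1;CKO library 4 are the highest for Crybb1, Cryba4, Aif1, C1qb and C1qa, while Cx3cr1 and Csf1r are lowest in control library 2.

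Cryab (ENSMUSG00000032060, chromosome 9, 50751325 to 50756636, forward strand) encodes αB crystallin, which is made in many tissues under stress. It had 2519.8, 2201 and 3458 normalized counts in control libraries 1, 2 and 3 and 2629, 1543 and 1720.1 in Bmal1;CKO libraries 4, 5 and 6. Libraries 5 and 6 lay below every control library and library 4 lay within the control range. The means were 2726 ± 653 and 1964 ± 582 (SD, n = 3 each). The log2 fold change was -0.49 (standard error 0.33, limma-trend adjusted p = 0.883; exact permutation test, two-sided p = 0.3), and it was -0.72 without library 4 and -0.30 without control library 3, the library with the highest level. That library also held 48968 normalized counts of the 8 pericyte markers, against 2365 to 8969 in the other 5, and their part in the level of Cryab was not tested. Hspb2, a small heat shock gene on the opposite strand, shares 252 exon bases with it, and without strand in the counting reads from these bases cannot be told apart. Hspb2 had 12.1 to 134 normalized counts, far fewer than Cryab.

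The other small heat shock genes had estimates on both sides of 0. Of 7 listed, 6 were tested, with 3 estimates above 0, 3 below and a median of 0.01 on the log2 scale. By limma-trend 0 had an adjusted p under 0.05 and 2, Hspb8 and Hspb9, an unadjusted p under 0.05, where 4.92% of all genes tested had one. The groups lay apart in 3 of the 6, 2 higher and 1 lower in Bmal1;CKO, where 6.62% of all genes tested lay apart as higher and 4.54% as lower. Hspb9, which is in both counts, passed the filter through the group in which it is high. Neither count is therefore support for a difference of the list. Hspb8, a partner of the autophagy factor BAG3, had 876 ± 141 normalized counts in control and 263 ± 177 in Bmal1;CKO (SD, n = 3 each). Its log2 fold change was -2.11 (standard error 0.76, limma-trend unadjusted p = 0.0259, adjusted p = 0.883). Hspb6 had 3768 ± 1979 in control and 5774 ± 123 in Bmal1;CKO (SD, n = 3 each), with control library 1 at 1491 the lowest. Hspb9, a testis-type member, had 3 reads over the control libraries and 74 over the Bmal1;CKO libraries, a ratio of 26.3 after scaling (95% exact Clopper-Pearson interval 8.66 to 131, counting error only).

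Crybb3 (ENSMUSG00000029352, chromosome 5, 113075839 to 113081584, reverse strand) and Cryba1 (ENSMUSG00000000724, chromosome 11, 77718615 to 77725283, reverse strand) were read at lower levels. Cryba1 is known from retinal astrocytes and pigment epithelium, where it acts in lysosomes. Crybb3 had 297, 577 and 207 normalized counts in control and 428, 260.0 and 278 in Bmal1;CKO, so that the Bmal1;CKO libraries lay within the control range. Cryba1 had 224, 84.4 and 35.0 in control and 73.1, 64.8 and 18.9 in Bmal1;CKO, with control library 1 the highest and library 6 the lowest. The log2 fold change was -0.07 (standard error 0.60, limma-trend adjusted p = 0.987) for Crybb3 and -0.94 (standard error 1.06, limma-trend adjusted p = 0.888) for Cryba1, and that of Cryba1 was -0.27 without control library 1 and -1.59 without control library 3. Cryba1 lies within the span of Nufip2 on the opposite strand but shares 0 exon bases with it. The 6 astrocyte markers summed to 522 to 6460 normalized counts in control and 1675 to 2975 in Bmal1;CKO, lowest in control library 1, where Cryba1 was highest. The Pearson coefficient of log2 Cryba1 with their log2 sum was -0.55 over 6 libraries. Over the 4 libraries without control libraries 1 and 3 it was 0.97, so its sign rested on those libraries. The part of astrocytes in the level of Cryba1 was not tested. Of the 10 pigment epithelium markers, 3 had 10 or more reads in every library.

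Cryba2 (ENSMUSG00000006546, chromosome 1, 74889934 to 74893143, reverse strand), a β crystallin of the lens, was the 1 of the 8 tested genes whose groups did not overlap. Among all genes tested 11.2% did not overlap, 6.62% as higher and 4.54% as lower in Bmal1;CKO, so 1 of 8 was near that share. Cryba2 had 0, 1.86 and 0 normalized counts in control libraries 1, 2 and 3, from 0, 2 and 0 reads. In Bmal1;CKO libraries 4, 5 and 6 it had 56.3, 25.9 and 33.0, from 40, 30 and 40 reads. Every control library was thus at or below the level that 3 reads give, and every Bmal1;CKO library above it. The ratio of the 110 reads in Bmal1;CKO to the 2 in control was 58.7 after scaling, with a 95% exact Clopper-Pearson interval of 15.9 to 491 that covers counting error only. The limma-trend unadjusted p was 0.00424 and the adjusted p 0.867, and the exact permutation test gave p = 0.1 (two-sided, n = 3 each), the smallest that this design allows. Since the gene passed the filter through the group in which it is high, its place among the 8 is no support for a difference of the family. The levels remain low: at 56.3 normalized counts in its highest library, Cryba2 lay far below Crybb1. Its neighbours Fev and Cfap65 had 37.9 and 2.86 normalized counts at most.

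Cryaa (ENSMUSG00000024041, chromosome 17, 31677807 to 31681733, forward strand), αA crystallin and a leading protein of lens fibres, came almost wholly from 1 library. It had 0, 0 and 12.9 normalized counts in control libraries 1, 2 and 3 and 284, 13.8 and 0.824 in Bmal1;CKO libraries 4, 5 and 6. Of its 237 reads, 85.2% were in library 4 (95% exact Clopper-Pearson interval 80.1% to 89.5%), which held 13.3% of all reads on genes. The log2 fold change of 3.04 (standard error 2.09, limma-trend adjusted p = 0.883) was 1.11 without library 4. Its mean in Bmal1;CKO was 99.6 with library 4 and 7.32 without it, against 4.29 in control. AC090881.2, an antisense gene that shares 273 exon bases with Cryaa, had at most 2.59 normalized counts.

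The 2 crystallins that did not pass the filter had the same library. Crygs (ENSMUSG00000033501, chromosome 16, 22805203 to 22811577, reverse strand), γS crystallin, had 13 reads in library 4 and 0 in each of the other 5. Crybb2 (ENSMUSG00000042240, chromosome 5, 113058258 to 113070117, reverse strand) had 5 reads in library 4, 1 in control library 3 and 0 elsewhere. The γ crystallins Cryga, Crygb, Crygc, Crygd, Cryge and Crygf, which were not among the 10 genes and were looked at because they are lens fibre proteins of the same family, had 286 of their 314 reads in library 4 (91.1%, interval 87.4% to 94.0%). Crygb had 19 further reads in control library 1. These 6 are close copies, so reads may have been split among them. Control library 2 had 0 reads on all of the 9 genes Cryaa, Crybb2, Crygs and Cryga to Crygf together, and Bmal1;CKO library 6 had 1.

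Other genes of the lens were read in several libraries or in none. The lens connexin gene Gja3, Lgsn, which encodes lengsin, the lens transcription factor Foxe3 and the fibre membrane gene Lim2 had 0 reads in all 6 libraries. Mip, the lens aquaporin, had 28.1 normalized counts in library 4 but 39.0 in control library 2. Bfsp2, a lens beaded filament protein, was highest in library 4 at 367, with 44.5 to 181 elsewhere, whereas Bfsp1, its partner, had 543 in library 4 and 639 in control library 3 and only 1.23 in control library 1. Of the 15 lens structural genes, 6 were tested, with 4 estimates above 0, 2 below and 0 at an unadjusted p under 0.05 by limma-trend. Summed without Tdrd7, a broadly read gene that held 78.1% to 98.3% of the sum, the list had 86.1, 414 and 855 normalized counts in control and 949, 579 and 638 in Bmal1;CKO, so library 4 was the highest, next to control library 3. With Tdrd7, library 4 was the lowest at 4328. The part of lens cells or of lens RNA in library 4 was not tested. The plot of reads on the 9 genes shows how they were spread over the libraries.

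**Figure D4:**
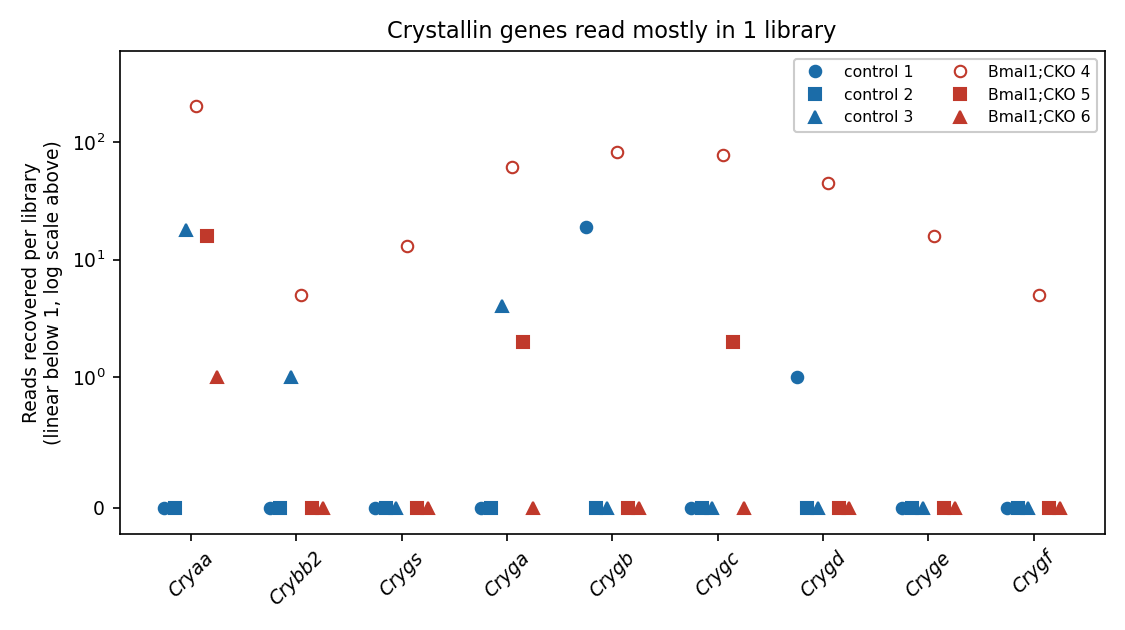
Reads recovered per library (vertical axis, linear below 1 and logarithmic above) on Cryaa, Crybb2, Crygs and the 6 γ crystallins Cryga to Crygf, blue for control and red for Bmal1;CKO, with library 4 as an open circle. Library 4 holds the highest value for each of the 9 genes, from 5 to 202 reads.

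Factors listed as regulators of crystallin genes were read in the same libraries. Of 13 listed, 10 were tested, with 8 estimates above 0, 2 below and a median of 0.34 on the log2 scale. Of these, 0 had an adjusted p under 0.05 by limma-trend, with 1 at an unadjusted p under 0.05, where 4.92% of all genes tested had one. Maf, a large MAF factor, had 3318 to 9185 normalized counts, highest in control library 1 and lowest in control library 2. Pitx3 and Foxe3, factors of the lens lineage, had 0 to 0.928 normalized counts. The groups did not overlap for 1 of the 10, near the share of 11.2% among all genes tested. This was Hsf1, the main heat shock factor, with 3609 ± 577 in control and 5824 ± 236 in Bmal1;CKO (SD, n = 3 each). Its log2 fold change was 0.70 (standard error 0.24, limma-trend unadjusted p = 0.0188, adjusted p = 0.883). The lens heat shock factor Hsf4 had at most 34.6 normalized counts and 0 in control library 1.

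The 8 tested crystallins differed in their profiles over the libraries. Among their 28 pairs the Pearson coefficient of log2(normalized count + 1) over 6 libraries ran from -0.60 for Cryab with Cryba2 to 0.90, reached by Cryba4 with Crybb1 and by Cryaa with Crym. Without the libraries farthest from the median of the first gene of each pair these became -0.26, 0.74 and 0.74. The genes outside the family with the profile most like Crym were Clip2, Hes6 and Gm12226 (0.98 to 0.99 over 6 libraries). Hes6, a repressor of the HES family, had 29501 to 36786 normalized counts in control and 39953 to 82762 in Bmal1;CKO. Those most like Cryab were 2510009E07Rik, Ube2j1 and Aldh9a1 (0.98 to 0.99), and those most like the mean standardized profile of the 5 tested β crystallins were Gfer, Mrpl19 and Foxo3 (0.99 each). With 15608 genes compared over 6 libraries, coefficients of this size are a description only.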

How the data were processed

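RNA of GFP and tdTomato positive cells, 3 control and 3 Bmal1;CKO samples, was amplified (Smart v4) and sequenced as Nextera XT libraries. Per the submitters' processing notes and the study's methods, the authors used FastQC, Trimmomatic, Bowtie on mm10 (GRCm38), featureCounts and DESeq2. The use of strand in the counting is not given in the sources used here. The deposited table holds a signal per gene and library, the count divided by a size factor. Multiplying by that factor gave whole reads (within 0.01 of a read) for 100% of the values. Its columns of fold changes and p-values, which are the authors' own comparison, were not used. Column numbers do not match the sample numbers of the labels, so each column served as a library of its genotype.

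Genes were tested with limma-trend (limma 3.58.1, R 4.3.3) on log2(normalized count + 1) with a term for genotype alone. Genes with 10 or more reads in 3 or more libraries were tested, and p-values were adjusted over all of them. A fold on this scale understates the change of low genes. Alternatives were edgeR 4.0.16, limma-voom, DESeq2 1.42.0, log2 CPM with TMM scaling, no trend, pseudocounts of 0.5 and 10, 2 other filters, and each library left out. The fits were also run on simulated counts with the same variability setting for every gene. That setting was not matched to the spread of the crystallin genes. Changes were placed only in genes above the mean levels of Cryba2, Cryaa and Cryba1, so the simulation does not cover such low genes. Coordinates and exon lengths are from GENCODE M21 (GRCm38). The members and gene lists were chosen with earlier results of these data known. Members are described in full, and of the other lists those with an unadjusted p under 0.05, groups that do not overlap or a defining role; genes most like a member are the 3 with the highest Pearson coefficient among those with a mean of 100 normalized counts or more, and the comparison of Crybb1 and Cryba4 with single microglial genes and the choice of the lens γ crystallins were made after seeing the values.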

Additional observations from a re-analysis of the deposited data

How the results depend on the processing

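The number of crystallin genes with an adjusted p under 0.05 was 0 in all 18 alternatives. Over all genes tested the count was 0 in the limma-trend fit, 67 with DESeq2 without shrinkage, 35 with its normal prior, 61 with limma without the trend, 1 with at least 1 read in total, 1 where every library had 10 or more reads, and 0 to 6 with 1 library left out, the 6 without control library 1. Unadjusted, the count of p under 0.05 was 1007, and 444 to 2444 with 1 library left out, the 444 without Bmal1;CKO library 5 and the 2444 without control library 3. The median log2 fold change of the tested crystallins ran from -0.12 to 0.56, and 135 of 142 values of single genes kept their direction without passing the threshold. The other 7 belong to Crybb1, which ran from -0.58 to 0.53 with 1 library left out and was 0.088 when control library 1 and Bmal1;CKO library 4 were both left out (chosen after seeing the data), and to Crybb3, which ran from -0.40 to 0.34. The number of the 8 whose groups did not overlap was 1 to 4 with 1 library left out, 4 without control library 3 (Cryaa, Cryba1, Cryba2 and Crym; 30.7% of all genes tested), 3 without Bmal1;CKO library 6 (19.0%), 2 without control library 1 (25.7%) and 2 without Bmal1;CKO library 4 (17.6%), since fewer libraries can overlap. The adjusted p of Cryba2 ran from 0.0636 without the trend to 1.00, and DESeq2 with its prior gave none for it. Cryba2 and Cryaa are absent from the fit with that last filter. The cause of these differences was not tested. No paired analysis was possible because the columns of the table do not carry the replicate numbers of the labels. At 0 to 2 reads in control, the fold of Cryba2 is limited by depth.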

Other observations

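Enzymes and enzyme-like proteins that carry the crystallin name were read in every library. Cryz, a quinone oxidoreductase, had 1345 to 2556 normalized counts over the 6 libraries, Cryzl1 had 1646 to 3498, Cryzl2 had 1271 to 4737, and Cryl1, an L-gulonate dehydrogenase, had 3008 to 5743. The groups overlapped for each of these. Of the 14 other crystallin genes listed, 7 were tested, with 4 estimates above 0, 3 below, a median of 0.12 on the log2 scale and 0 at an adjusted p under 0.05 (limma-trend) or at an unadjusted p under 0.05. Crygn, γN crystallin, which is known from retinal neurons, was the 1 of the 7 whose groups did not overlap. Among all genes tested 11.2% did not overlap, 4.54% as lower in Bmal1;CKO, so 1 of 7 was near that share. Crygn had 30.9 ± 7.65 normalized counts in control and 16.9 ± 5.66 in Bmal1;CKO (SD, n = 3 each). Its log2 fold change was -0.86 (standard error 0.99, limma-trend adjusted p = 0.888).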
